A study of Coturnix japonica with 16 samples.

Results

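The growth hormone, insulin and IGF axis was followed in the liver of Japanese quail (Coturnix japonica) through 9 genes, GHR, SOCS2, IGF1, IGFBP2, IGFBP4, IGF1R, INSR, IRS2 and FOXO1. The genes were chosen by name, with earlier results of these data known. Their NCBI symbols were matched to gene numbers in the deposited table, and transcript rows were summed per gene. All 9 were found among 20308 genes, and all 9 were among the 13748 genes with enough counts to be tested. The left liver lobe was sampled from 16 birds aged 12 weeks. After a fast of 16 hours each bird was gavaged once, into the crop, with 4 mL/kg of liquid. Of the birds, 6 received corn oil alone (solvent), 5 received ethinylestradiol (EE2) in corn oil at 0.5 mg/kg, and 5 received EE2 at 5 mg/kg. Lights were on for 8 hours a day and off for 16 hours. EE2 is a synthetic estrogen used in contraceptive pills. The sources used here do not give the sex of the birds or the time from dosing to sampling. The titles give each bird a replicate number, by which single birds are named here, and a bird number in brackets, by which they are classed. The bird numbers 1 to 3 were used in every group, and the higher numbers were 4, 5 and 6 for solvent, 4 and 5 at 0.5 mg/kg, and 5 and 6 at 5 mg/kg, so values are also given for the 7 birds numbered 4 to 6 and the 9 birds numbered 1 to 3.

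Growth hormone from the pituitary binds its receptor on hepatocytes and signals through the kinase JAK2 and the transcription factor STAT5, which in mammals switches on IGF1 and SOCS2. IGF1 leaves the liver bound to IGF-binding proteins and acts on growing tissues, while SOCS2 feeds back to dampen signalling from the growth hormone receptor. Insulin acts on the liver through its own receptor, substrates such as IRS2, and the kinase AKT, which in mammals keeps the transcription factor FOXO1 out of the nucleus. In mammals, oral estrogens are known to lower circulating IGF1.

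Library totals ran from 24020983 to 38156102 estimated counts in solvent birds, 15173021 to 30106089 at 0.5 mg/kg and 15825784 to 46192737 at 5 mg/kg, and log2 levels of birds of the same group correlated at 0.928 to 0.968 over 35 pairs. Levels are given as CPM, a library's counts scaled to a common total, after TMM scaling of the libraries. All 13 hepatocyte markers were detected, with summed levels of 99470 to 193673 CPM in solvent birds, 158412 to 245790 CPM at 0.5 mg/kg and 145067 to 201810 CPM at 5 mg/kg. Insulin itself (INS) was at 0 in every bird, and the 5 pancreas markers found in the table summed to at most 2.19 CPM. Solvent replicate 1 stood apart, with the lowest hepatocyte sum, 99470 CPM, and the highest lymphocyte and macrophage sums, 103 CPM over 6 markers and 558 CPM over 7. The other 15 birds had lymphocyte sums of 10.9 to 55.2 CPM and macrophage sums of 148 to 301 CPM. Much of the hepatocyte sum came from albumin (ALB), at 53516 CPM in solvent replicate 1 and 79330 to 156309 CPM in the others. Solvent replicate 6 had a hepatocyte sum of 138876 CPM with ALB at 93001 CPM. Apart from ALB, its sum was thus close to that of solvent replicate 1, which was the lowest bird through its ALB. In whole tissue, fewer cells of a type and less RNA per cell cannot be told apart.

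SOCS2 and IRS2 were the members whose levels differed most between dosed and solvent birds. SOCS2, the feedback inhibitor, averaged 5.78 ± 4.4 CPM in solvent birds, 1.56 ± 1.72 CPM at 0.5 mg/kg and 0.851 ± 0.454 CPM at 5 mg/kg (SD, n = 6, 5 and 5). IRS2, the insulin receptor substrate, averaged 25.7 ± 2.9 CPM in solvent birds, 39.8 ± 11.5 CPM at 0.5 mg/kg and 41.3 ± 7.83 CPM at 5 mg/kg. Neither difference passed the threshold, an adjusted p of 0.05 in edgeR's quasi-likelihood test over all genes tested. The group means of the hormone receptor GHR and of the growth factor IGF1 differed by less than the SD over all 16 birds. That SD was 255 CPM for GHR and 25.0 CPM for IGF1. FOXO1 lay between 20.4 and 29.8 CPM in all 16 birds.

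**Figure D1:**
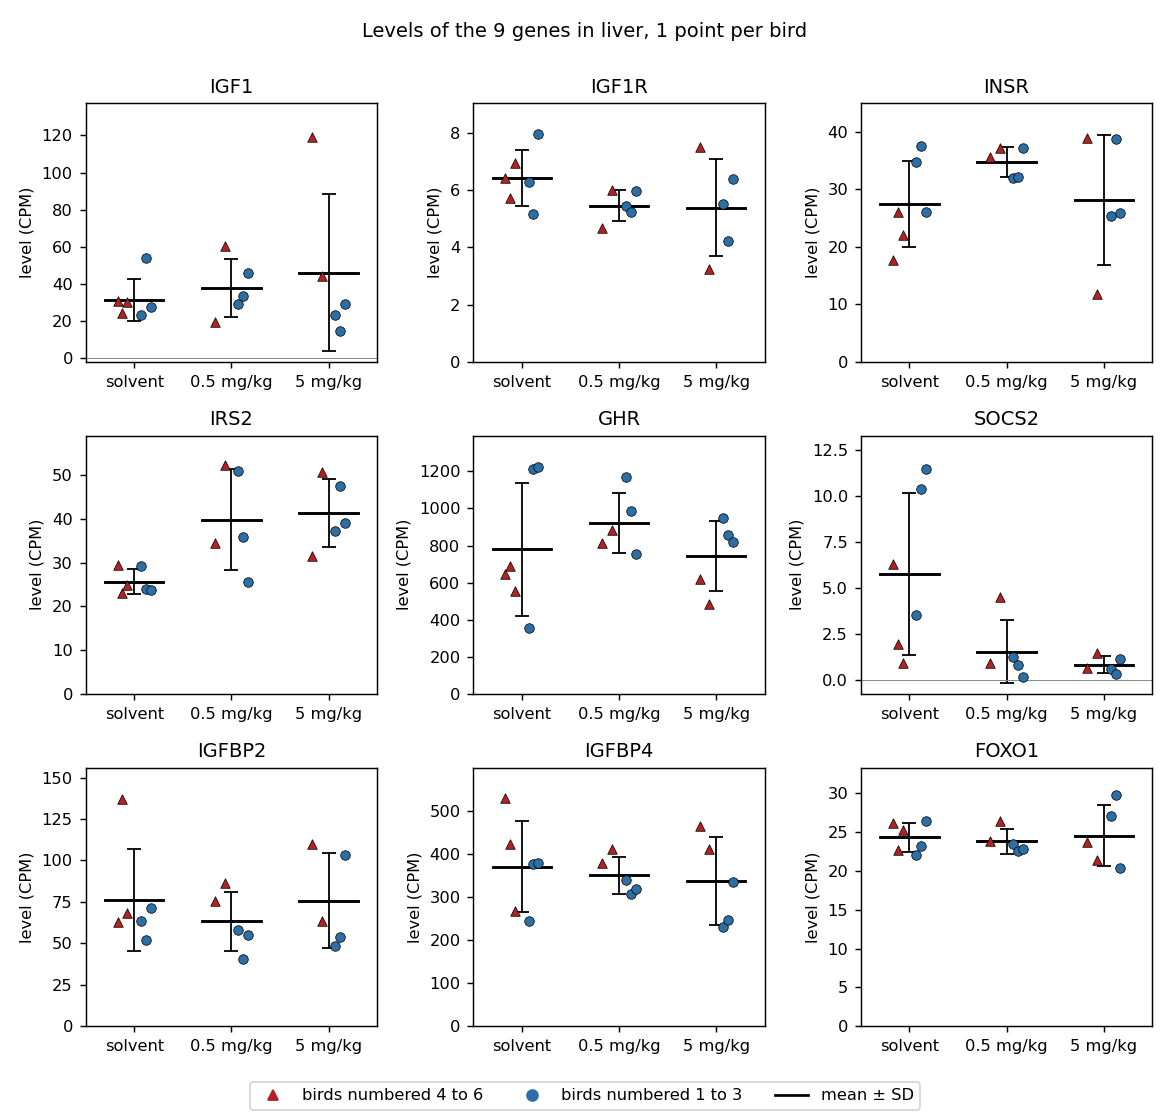
Level in CPM (vertical axes, each starting at or just below 0) of each of the 9 genes in solvent, 0.5 mg/kg and 5 mg/kg birds, 1 point per bird. Triangles are birds numbered 4 to 6, circles are birds numbered 1 to 3, and black bars give the group mean ± SD. IRS2 at 5 mg/kg lay between 31.6 and 50.7 CPM, above the highest solvent bird at 29.5 CPM, while for every other gene the 5 mg/kg and solvent birds overlapped.

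With edgeR, 0 of the 9 genes passed the threshold at 5 mg/kg against solvent, where 0.0436% of all genes tested did. None of the 9 passed at 0.5 mg/kg against solvent, at 5 mg/kg against 0.5 mg/kg, or for both doses together against solvent, where 0.0% of all genes tested passed in each comparison. At an unadjusted p under 0.05, IRS2 and SOCS2 were counted at 5 mg/kg against solvent, 2 of 9 beside 9.76% of all genes. The same 2 genes were counted at 0.5 mg/kg against solvent, beside 8.25%, and for both doses against solvent, beside 10.1%. Between the doses it was 0 of 9, beside 7.25%. The comparisons against solvent share the 6 solvent birds. Because the 9 genes were chosen with earlier results of these data known, these counts are not an independent test.

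DESeq2 called IRS2 and SOCS2 at 5 mg/kg against solvent, where it called 1.19% of the genes that received an adjusted p, and again for both doses against solvent, where it called 1.13%. It called 0 of the 7 members with an adjusted p at 0.5 mg/kg against solvent, beside 0.575% of the genes that received one. At 5 mg/kg against 0.5 mg/kg it called 0 of 7, beside 0.416% of the genes that received one. Limma-voom called 0 of 9 in each of these comparisons, beside 0.0145% at 5 mg/kg against solvent and 0.0% in the other 3. Over the 9 genes the median log2 fold change at 5 mg/kg against solvent was -0.0043, beside -0.0017 over all genes tested. It was -0.029 at 0.5 mg/kg against solvent, beside -0.018 over all genes.

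**Figure D2:**
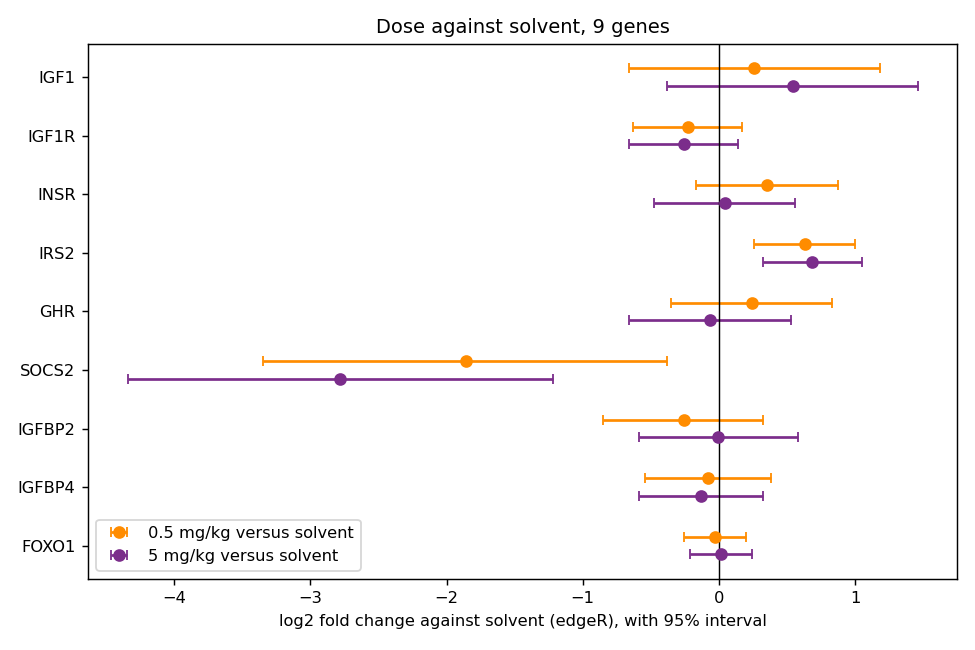
Log2 fold change against solvent (horizontal axis, edgeR) with its 95% interval for each of the 9 genes, orange for 0.5 mg/kg and purple for 5 mg/kg. The intervals of IRS2 (0.32 to 1.05 at 5 mg/kg) and SOCS2 (-4.34 to -1.22 at 5 mg/kg) lie to 1 side of 0 at both doses, before adjustment over genes, and the other 7 genes' intervals include 0.

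GHR (NCBI gene 107305958), the growth hormone receptor, lies on chromosome Z. GHR lay between 355 and 1223 CPM in solvent birds, with a median of 668 CPM. The levels of GHR were 1168, 987, 756, 813 and 883 CPM at 0.5 mg/kg, and 947, 857, 821, 622 and 483 CPM at 5 mg/kg. With both number classes pooled, the solvent birds spanned the whole range of the dosed birds. Among birds numbered 4 to 6 they did not. There the solvent birds lay between 554 and 688 CPM, the 0.5 mg/kg birds at 813 and 883 CPM, and the 5 mg/kg birds at 622 and 483 CPM. With so few birds this says little, and the share of all genes with such a pattern was not counted. The lowest of all 16 was solvent replicate 1. Its hepatocyte marker sum was also the lowest, through its ALB, and the part of that in the GHR level was not tested. The log2 fold change was -0.064 at 5 mg/kg (SE 0.28, 95% interval -0.66 to 0.53, adjusted p = 0.959) and 0.24 at 0.5 mg/kg (SE 0.28, 95% interval -0.35 to 0.83, adjusted p = 0.862), both against solvent. Without solvent replicate 1 these values were -0.21 and 0.086.

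SOCS2 (NCBI gene 107311591, chromosome 1) encodes the suppressor of cytokine signalling that marks the growth hormone receptor for degradation in mammals. SOCS2 lay between 0.938 and 11.5 CPM in solvent birds, with a median of 4.93 CPM. Its levels were 1.29, 0.815, 0.174, 0.953 and 4.55 CPM at 0.5 mg/kg, and 0.642, 0.34, 1.15, 0.647 and 1.47 CPM at 5 mg/kg. All 10 dosed birds lay below the solvent mean, as did solvent replicates 1, 5 and 6, at 3.55, 2.0 and 0.938 CPM. Of the dosed birds, 5 lay below every solvent bird, 3 at 5 mg/kg and 2 at 0.5 mg/kg, so the groups overlapped. The share of all genes with such a pattern was not counted. These levels rested on few reads, 4 to 413 estimated counts per bird.

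At 5 mg/kg the SOCS2 level was 0.146 of that in solvent birds, a log2 fold change of -2.78 (SE 0.74, 95% interval -4.34 to -1.22). Its adjusted p was 0.189 with edgeR, 0.00659 with DESeq2 and 0.292 with limma-voom. At 0.5 mg/kg the log2 fold change against solvent was -1.86 (SE 0.7, 95% interval -3.35 to -0.38, adjusted p = 0.536), and -2.87 without 0.5 mg/kg replicate 5, the bird at 4.55 CPM. DESeq2 gave no adjusted p for SOCS2 at 0.5 mg/kg, and limma-voom gave an adjusted p of 0.691. For both doses against solvent the log2 fold change was -2.32 (SE 0.56, 95% interval -3.51 to -1.13), with an adjusted p of 0.187 with edgeR, 0.0115 with DESeq2 and 0.266 with limma-voom. Between 5 mg/kg and 0.5 mg/kg the log2 difference was -0.91 (SE 0.74, adjusted p = 0.836), and 0.09 without 0.5 mg/kg replicate 5. Without solvent replicate 1, SOCS2 at 5 mg/kg against solvent was at -2.89 (adjusted p = 0.186).

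SOCS2 was also compared within the number classes. Among birds numbered 1 to 3, the 6 dosed birds lay between 0.174 and 1.29 CPM and the 3 solvent birds between 3.55 and 11.5 CPM, with no overlap, and 1.39% of all genes tested had every dosed bird of these numbers below every solvent bird. Among birds numbered 4 to 6, the 4 dosed birds lay between 0.647 and 4.55 CPM and the 3 solvent birds between 0.938 and 6.31 CPM, which overlapped. Fitted within each class, the log2 fold change for both doses against solvent was -0.85 in birds 4 to 6 (adjusted p = 0.998) and -3.56 in birds 1 to 3 (adjusted p = 0.369). The test of the difference itself gave 2.06 at 5 mg/kg (SE 1.22, adjusted p = 0.99) and 3.37 at 0.5 mg/kg (SE 1.22, adjusted p = 1.0), on the log2 scale, so the classes were not shown to differ. Leaving out solvent replicate 4 raised the 5 mg/kg value to 3.12 and the 0.5 mg/kg value to 4.43, the highest of the fits with 1 bird left out. The lowest were 1.32 at 5 mg/kg, with 5 mg/kg replicate 5 left out, and 1.84 at 0.5 mg/kg, with 0.5 mg/kg replicate 5 left out.

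IGF1 (NCBI gene 107316281, chromosome 1) encodes the growth factor that the liver secretes under growth hormone. IGF1 lay between 23.0 and 53.7 CPM in solvent birds, with a median of 28.8 CPM. Its levels were 29.0, 33.6, 46.1, 19.7 and 60.3 CPM at 0.5 mg/kg, and 23.1, 14.8, 29.0, 119 and 44.2 CPM at 5 mg/kg. The 5 mg/kg group held both the lowest and the highest bird of the study, and its mean, 46.1 ± 42.4 CPM, was carried by 1 bird at 119 CPM. The log2 fold change was 0.54 at 5 mg/kg (SE 0.43, 95% interval -0.38 to 1.46, adjusted p = 0.71) and 0.26 at 0.5 mg/kg (SE 0.44, 95% interval -0.66 to 1.18, adjusted p = 0.914), both against solvent. Without the bird at 119 CPM, 5 mg/kg replicate 4, the 5 mg/kg value was -0.19. Limma-voom gave 0.22 at either dose.

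At 5 mg/kg the 2 birds numbered 4 to 6 had higher IGF1 levels than the 3 birds numbered 1 to 3. With so few birds a separation says little, and the share of all genes with one was not counted. Birds numbered 4 to 6 were at 119 and 44.2 CPM, against 24.2 to 30.7 CPM in solvent birds of those numbers, whereas birds numbered 1 to 3 were at 14.8 to 29.0 CPM, against 23.0 to 53.7 CPM in theirs. Within the classes the log2 fold change was 1.52 in birds 4 to 6 (adjusted p = 0.8) and -0.64 in birds 1 to 3 (adjusted p = 0.69). The difference between the classes was 2.17 (SE 0.67, 95% interval 0.73 to 3.61, unadjusted p = 0.00616), but its adjusted p was 0.99, and it was 1.28 without 5 mg/kg replicate 4. At 0.5 mg/kg the difference between the classes was 0.44 (SE 0.67, adjusted p = 1.0). Over the 9 genes, 0 passed the adjusted test of a dose effect that differed by class, at 5 mg/kg or at 0.5 mg/kg, beside 0.0% of all genes at either dose with edgeR and with limma-voom. At an unadjusted p under 0.05, IGF1 alone was counted at 5 mg/kg, beside 4.15% of all genes, and SOCS2 alone at 0.5 mg/kg, beside 3.02%.

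IGFBP2 (NCBI gene 107316830, chromosome 7) encodes a secreted protein that binds IGFs in plasma. IGFBP2 lay between 52.1 and 137 CPM in solvent birds, with a median of 65.8 CPM. Its levels were 58.2, 40.7, 55.3, 75.8 and 86.1 CPM at 0.5 mg/kg, and 48.4, 53.9, 103, 110 and 63.7 CPM at 5 mg/kg. The groups overlapped over most of their range, and the solvent bird at 137 CPM was the highest of all. For IGFBP2, the log2 fold change was -0.0043 at 5 mg/kg (SE 0.28, 95% interval -0.59 to 0.58, adjusted p = 0.997) and -0.26 at 0.5 mg/kg (SE 0.28, 95% interval -0.85 to 0.32, adjusted p = 0.838), both against solvent.

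IGFBP4 (NCBI gene 107325255, chromosome 27) encodes a binding protein that in mammals holds IGFs inactive until it is cleaved by the protease PAPPA. IGFBP4 lay between 244 and 530 CPM in solvent birds, with a median of 377 CPM. Its levels were 339, 306, 319, 378 and 410 CPM at 0.5 mg/kg, and 231, 246, 334, 465 and 411 CPM at 5 mg/kg. The solvent birds spanned nearly the whole range of the dosed birds. For IGFBP4, the log2 fold change was -0.13 at 5 mg/kg (SE 0.22, 95% interval -0.59 to 0.32, adjusted p = 0.872) and -0.078 at 0.5 mg/kg (SE 0.22, adjusted p = 0.95), both against solvent.

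IGF1R (NCBI gene 107318870, chromosome 10), the IGF1 receptor, had few counts, 68 to 272 per bird. IGF1R lay between 5.17 and 7.97 CPM in solvent birds, with a median of 6.35 CPM. Its levels were 5.43, 5.23, 5.96, 4.66 and 5.99 CPM at 0.5 mg/kg, and 5.53, 4.24, 6.39, 7.5 and 3.23 CPM at 5 mg/kg. Of the dosed birds, 9 of 10 lay below the solvent mean of 6.42 CPM, and the groups overlapped. For IGF1R, the log2 fold change was -0.26 at 5 mg/kg (SE 0.19, adjusted p = 0.675), -0.23 at 0.5 mg/kg (SE 0.19, adjusted p = 0.781) and -0.25 for both doses (SE 0.16, 95% interval -0.58 to 0.091, adjusted p = 0.628), each against solvent. The lowest bird for IGF1R, 5 mg/kg replicate 5 at 3.23 CPM, also had the lowest sum of the 11 endothelial markers, 99.7 CPM. The endothelial sums ran from 147 to 230 CPM in solvent birds, 140 to 196 CPM at 0.5 mg/kg and 99.7 to 206 CPM at 5 mg/kg, and their part in the IGF1R levels was not tested.

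INSR (NCBI gene 107325585, chromosome 28), the insulin receptor, lay between 17.7 and 37.5 CPM in solvent birds, with a median of 26.1 CPM. Its levels were 32.0, 32.1, 37.2, 35.7 and 37.2 CPM at 0.5 mg/kg, and 25.3, 38.8, 25.9, 39.0 and 11.9 CPM at 5 mg/kg. The 0.5 mg/kg birds lay close together and all above the solvent mean of 27.4 CPM, while the 5 mg/kg birds held both the highest and the lowest level. For INSR, the log2 fold change was 0.042 at 5 mg/kg (SE 0.25, 95% interval -0.48 to 0.56, adjusted p = 0.971) and 0.35 at 0.5 mg/kg (SE 0.25, 95% interval -0.17 to 0.87, adjusted p = 0.744), both against solvent.

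IRS2 (NCBI gene 107307936, chromosome 1) encodes the docking protein that passes the signal of the insulin and IGF1 receptors to PI3 kinase, and in mammalian liver its gene is switched on in fasting. IRS2 lay between 23.0 and 29.5 CPM in solvent birds, with a median of 24.4 CPM. Its levels were 51.0, 35.9, 25.5, 34.6 and 52.2 CPM at 0.5 mg/kg, and 37.3, 47.6, 39.1, 31.6 and 50.7 CPM at 5 mg/kg. All 5 birds at 5 mg/kg and 4 of 5 birds at 0.5 mg/kg lay above every solvent bird. Of all genes tested, 0.553% had every 5 mg/kg bird above every solvent bird. The exception at 0.5 mg/kg, replicate 3 at 25.5 CPM, lay among the solvent birds.

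At 5 mg/kg IRS2 was at 1.6 times the solvent level, a log2 fold change of 0.68 (SE 0.17, 95% interval 0.32 to 1.05). Its adjusted p was 0.179 with edgeR, 0.0289 with DESeq2 and 0.178 with limma-voom. At 0.5 mg/kg it was at 1.55 times the solvent level, a log2 fold change of 0.63 (SE 0.17, 95% interval 0.26 to 1.0). The adjusted p at this dose was 0.379 with edgeR, 0.0923 with DESeq2 and 0.586 with limma-voom. For both doses the log2 fold change against solvent was 0.66 (SE 0.15, 95% interval 0.34 to 0.98), with an adjusted p of 0.167 with edgeR, 0.0115 with DESeq2 and 0.185 with limma-voom. Between 5 mg/kg and 0.5 mg/kg the log2 difference was 0.052 (SE 0.18, 95% interval -0.33 to 0.44, adjusted p = 0.974). The log2 fold change for both doses was 0.7 in birds 4 to 6 and 0.62 in birds 1 to 3. When 1 bird was left out at a time, it stayed between 0.6 and 0.72 over 16 fits, with 0 of 16 past the threshold. Without solvent replicate 1, IRS2 at 5 mg/kg against solvent was at 0.72 (adjusted p = 0.18).

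FOXO1 (NCBI gene 107308196, chromosome 1) encodes the transcription factor that insulin restrains through AKT and that in mammals drives genes of fasting. FOXO1 lay between 22.1 and 26.4 CPM in solvent birds, with a median of 24.2 CPM. Its levels were 23.4, 22.5, 22.8, 23.9 and 26.4 CPM at 0.5 mg/kg, and 27.1, 29.8, 20.4, 23.7 and 21.4 CPM at 5 mg/kg. The 5 mg/kg birds spread to both sides of the other groups. For FOXO1, the log2 fold change was 0.013 at 5 mg/kg (SE 0.11, 95% interval -0.21 to 0.24, adjusted p = 0.98) and -0.029 at 0.5 mg/kg (SE 0.11, 95% interval -0.26 to 0.2, adjusted p = 0.959), both against solvent. FOXO1 had the narrowest spread of the 9 genes over the 16 birds, a coefficient of variation of 10.2%, and SOCS2 had the widest, 122%. The other 7 lay between 20.5% for IGF1R and 65.9% for IGF1.

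Birds numbered 4 to 6 were compared with birds numbered 1 to 3 in a fit that held the dose groups constant. Of the 9 genes 0 passed the threshold with edgeR, beside 1.24% of all genes tested, and 3 (GHR, IGFBP2 and IGFBP4) had an unadjusted p under 0.05, beside 9.57%. DESeq2 called 0 of 9, beside 2.35% of the genes that received an adjusted p. Limma-voom called 0 of 9, beside 1.25% of all genes. GHR averaged 670 ± 140 CPM in birds 4 to 6 and 925 ± 275 CPM in birds 1 to 3 (SD, n = 7 and 9), and all 7 birds numbered 4 to 6 lay below the mean of the others. The log2 difference of GHR was -0.48 (SE 0.21, 95% interval -0.93 to -0.028, adjusted p = 0.478). Over 16 fits with 1 bird left out it ran from -0.6 to -0.39. The value of -0.6 (adjusted p = 0.0637) came without solvent replicate 1, which at 355 CPM was the lowest bird although it is numbered 1.

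IGFBP4 averaged 412 ± 80.4 CPM in birds 4 to 6 and 308 ± 56.1 CPM in birds 1 to 3, a log2 difference of 0.42 (SE 0.15, adjusted p = 0.331). IGFBP2 averaged 86.2 ± 27.8 CPM in birds 4 to 6 and 60.8 ± 18.2 CPM in birds 1 to 3, a log2 difference of 0.51 (SE 0.2, adjusted p = 0.394). All 7 birds numbered 4 to 6 lay above the IGFBP2 mean of birds 1 to 3, and 6 of 7 lay above theirs for IGFBP4. The ranges overlapped for both genes.

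Genes of chromosome Z, of which male birds carry a pair and females a single copy, were lower in birds 4 to 6 as a class. Over the 613 Z-linked genes tested, the median log2 difference of birds 4 to 6 over birds 1 to 3 was -0.46, with quartiles of -0.77 and -0.18, and 523 of 613 were below 0. Of these, 152 fell and 1 rose in the adjusted test, 25.0% in all. The median over the 13135 other genes was -0.0014. The difference of GHR, -0.48, was close to the Z-linked median, and 47.6% of the Z-linked genes lay below it. That value is for the GHR transcript rows summed. The rows' shares differed between the classes, as given with the transcript rows below, so single rows need not share it. The number of a bird and its Z-linked level moved together, and the labels used here do not give sex.

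**Figure D3:**
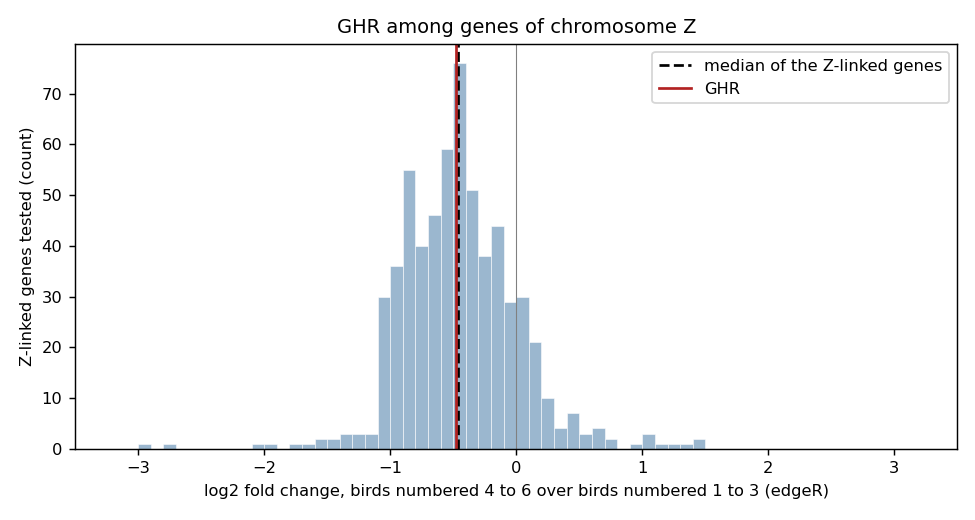
Histogram of the log2 fold change of the 613 Z-linked genes tested (horizontal axis, birds numbered 4 to 6 over birds numbered 1 to 3; vertical axis, number of genes). The dashed line marks their median, -0.46, and the red line marks GHR at -0.48, near the middle of the distribution.

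Other genes of the pathway were taken from 7 lists with 116 genes in all, of which 102 were found and 100 were tested. With edgeR 0 rose and 0 fell at 5 mg/kg against solvent, at 0.5 mg/kg against solvent, between the doses, and for both doses against solvent. At an unadjusted p under 0.05, 10 were higher and 7 lower at 5 mg/kg, and 10 were higher and 5 lower at 0.5 mg/kg, of 100 in each case. Over all genes tested the shares were 4.95% higher and 4.82% lower at 5 mg/kg, and 3.83% higher and 4.42% lower at 0.5 mg/kg. The median log2 fold change over the 100 genes was 0.05 at 5 mg/kg, beside -0.0017 over all genes tested, and 0.1 at 0.5 mg/kg, beside -0.018. The largest list median was 0.4 at 5 mg/kg, for 7 genes that insulin induces in liver, of which 6 were above 0, beside 49.8% of all genes.

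Among IGF ligands, other receptors and binding proteins, 0 of 14 passed in either direction. STC2, a secreted glycoprotein that in mammals inhibits the IGFBP4-cleaving protease PAPPA, averaged 18.8 ± 5.88 CPM at 5 mg/kg and 68.9 ± 36.8 CPM in solvent birds. All 5 birds at 5 mg/kg, at 13.0 to 28.4 CPM, lay below every solvent bird, as they did for 0.415% of all genes tested, and at 0.5 mg/kg STC2 averaged 58.5 ± 21.4 CPM. Its log2 fold change at 5 mg/kg against solvent was -1.87 (SE 0.34), with an adjusted p of 0.0692 with edgeR and 2.83e-05 with DESeq2. The list holding STC2 was chosen with earlier results of these data known, so neither that share nor these p-values are independent support. IGFBP1, a binding protein that insulin represses in mammals, averaged 116 ± 54.3 CPM at 0.5 mg/kg and 20.8 ± 22.0 CPM in solvent birds. All 5 birds at 0.5 mg/kg lay above every solvent bird, as they did for 0.902% of all genes tested, and at 5 mg/kg it averaged 36.8 ± 23.0 CPM. The log2 fold change of IGFBP1 was 2.48 at 0.5 mg/kg against solvent (SE 0.62), with an adjusted p of 0.379 with edgeR and 0.0273 with DESeq2. IGF2, the other IGF ligand, averaged 42.4 ± 17.3 CPM in solvent birds, 26.7 ± 5.15 CPM at 0.5 mg/kg and 31.4 ± 4.69 CPM at 5 mg/kg. All 10 dosed birds and solvent replicates 3 to 6 lay below that solvent mean, which included solvent replicate 1 at 76.3 CPM. IGF2 was named for its low p for both doses against solvent, a choice that favours such a count. The share of all genes with that pattern was not counted. The log2 fold change of IGF2 for both doses was -0.55 (SE 0.18, adjusted p = 0.302), and -0.3 without solvent replicate 1.

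Among genes of growth hormone receptor signalling, 16 were listed and 13 were found and tested, and 0 of 13 passed. STAT5A, STAT5B and SH2B1 were not found by these names, so no level of STAT5 is given here. STAT3, a transcription factor of cytokine signalling, averaged 202 ± 44.9 CPM in solvent birds, 268 ± 40.2 CPM at 0.5 mg/kg and 352 ± 87.6 CPM at 5 mg/kg. All 10 dosed birds exceeded the solvent average, as did solvent replicates 1, 4 and 5. STAT3 was named for its low p for both doses against solvent, a choice that favours such a count. The share of all genes with that pattern was not counted. For STAT3, the log2 fold change at 5 mg/kg against solvent was 0.8 (SE 0.18), with an adjusted p of 0.126 with edgeR and 0.00608 with DESeq2. SOCS3, a feedback inhibitor related to SOCS2, was at 17.0 ± 12.5 CPM in solvent birds, 31.1 ± 9.73 CPM at 0.5 mg/kg and 29.7 ± 14.3 CPM at 5 mg/kg, a log2 fold change of 0.83 for both doses (SE 0.44, adjusted p = 0.541).

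Among FOXO factors and their target genes, 0 of 21 passed. At 0.5 mg/kg against solvent, 17 of 21 were above 0, beside 46.9% of all genes, and their median log2 fold change was 0.36. The count above 0 was not particular to the FOXO list, though its median was the highest of the lists at that dose, which was not tested. The MTOR list, which shares SESN1 and SESN3 with it, also had 17 of 21 above 0 at that dose, with a median of 0.1. Over all lists 69 of 100 genes were above 0. At an unadjusted p under 0.05, 5 genes of the FOXO list were higher and 0 lower at that dose, beside 3.83% and 4.42% of all genes tested. The 5 were IGFBP1, PDK4, PPARGC1A, SESN1 and GADD45A, of which PDK4 and PPARGC1A are named after their values were seen. PDK4, a kinase that limits glucose oxidation in fasting, averaged 346 ± 88.5 CPM at 0.5 mg/kg and 108 ± 73.0 CPM in solvent birds, a log2 fold change of 1.68 (SE 0.61, adjusted p = 0.532). PPARGC1A, a coactivator of gluconeogenic genes, averaged 12.8 ± 2.78 CPM at 0.5 mg/kg and 4.44 ± 4.45 CPM in solvent birds. Its log2 fold change was 1.53 (SE 0.66, adjusted p = 0.587). The log2 fold changes at 5 mg/kg against solvent were 1.3 for PPARGC1A and -0.017 for PDK4. At 5 mg/kg 11 of the 21 genes were above 0, beside 49.8% of all genes, with a median of 0.045. At an unadjusted p under 0.05, 1 was higher (GADD45A) and 2 lower (KLF15 and SESN3), beside 4.95% and 4.82% of all genes tested. KLF15, a transcription factor of gluconeogenesis and amino acid breakdown, averaged 152 ± 40.5 CPM in solvent birds, 115 ± 26.3 CPM at 0.5 mg/kg and 72.4 ± 13.9 CPM at 5 mg/kg. All 5 birds at 5 mg/kg lay below every solvent bird, beside the 0.415% of all genes given above. KLF15 had a log2 fold change at 5 mg/kg against solvent of -1.07 (SE 0.21), with an adjusted p of 0.0848 with edgeR and 0.000316 with DESeq2. GADD45A, a stress gene that FOXO factors induce, averaged 8.0 ± 1.03 CPM in solvent birds, 10.6 ± 2.6 CPM at 0.5 mg/kg and 11.0 ± 2.72 CPM at 5 mg/kg, and its adjusted p for both doses was 0.368.

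Among insulin receptor substrates, adaptors and phosphatases, 0 of 14 passed. SHC1, an adaptor of the insulin and IGF1 receptors, averaged 67.3 ± 7.22 CPM in solvent birds, 52.9 ± 8.6 CPM at 0.5 mg/kg and 49.4 ± 8.97 CPM at 5 mg/kg. All 10 dosed birds lay below the solvent mean for SHC1, as did solvent replicates 1 and 2. SHC1 was named for its low p for both doses against solvent, a choice that favours such a count. The share of all genes with that pattern was not counted, so it is a description only. The log2 fold change of SHC1 for both doses was -0.4 (SE 0.12, adjusted p = 0.251). SH2B2, another adaptor, was at -0.58 (SE 0.18, adjusted p = 0.278), and PTPRF, a receptor-type tyrosine phosphatase, at 0.69 (SE 0.26, adjusted p = 0.406), on the same scale. Among PI3K and AKT genes, 0 of 14 passed, and AKT2 was not found by its name. The log2 fold changes for both doses were 0.49 for the catalytic subunit PIK3CB (adjusted p = 0.343) and -0.46 for the AKT phosphatase PHLPP2 (adjusted p = 0.523). PHLPP2 was at 28.3 CPM in solvent replicate 1 and between 7.16 and 11.3 CPM in the other 15 birds, and without that bird its value was -0.049.

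Among MTOR pathway genes, 0 of 21 passed for dose. MTOR itself was at 0.24 for both doses (SE 0.1, adjusted p = 0.437) and the MTOR inhibitor SESN3 at -0.4 (SE 0.17, adjusted p = 0.437), both as log2 fold changes against solvent. SESN1, a relative of SESN3, averaged 139 ± 24.1 CPM in solvent birds, 209 ± 20.4 CPM at 0.5 mg/kg and 145 ± 36.7 CPM at 5 mg/kg, and all 5 birds at 0.5 mg/kg lay above every solvent bird (adjusted p = 0.379), beside the 0.902% of all genes given for IGFBP1. Among genes that insulin induces in liver, 0 of 7 passed. For both doses against solvent, the lipogenic enzymes ACACA and ME1 were at 0.54 (adjusted p = 0.569) and 0.79 (adjusted p = 0.598), and the carbohydrate-responsive factor MLXIPL at -0.21 (adjusted p = 0.744). ACACA was at 0.98 without solvent replicate 2.

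Between birds numbered 4 to 6 and 1 to 3, 1 of the 100 tested list genes fell and 0 rose, a share near the 1.24% of all genes called in this comparison. Among Z-linked genes the share called was 25.0%. RPS6, the ribosomal protein that S6 kinase phosphorylates downstream of MTOR, is Z-linked like GHR and averaged 314 ± 23.7 CPM in birds 4 to 6 and 571 ± 86.1 CPM in birds 1 to 3. All 7 birds numbered 4 to 6 lay below every bird numbered 1 to 3, as for 0.662% of all genes tested, and the log2 difference was -0.86 (SE 0.12, adjusted p = 0.000989).

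**Figure D4:**
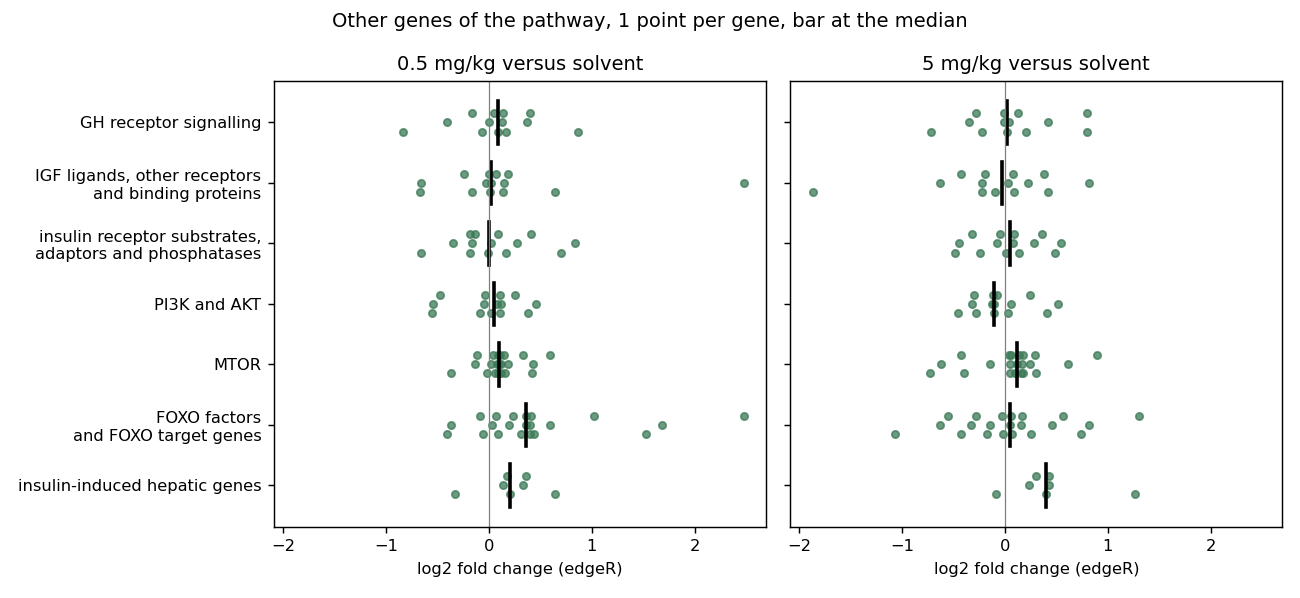
Log2 fold change (horizontal axis, edgeR) of the tested genes of the 7 pathway lists (vertical axis), 0.5 mg/kg over solvent on the left and 5 mg/kg over solvent on the right. Each point is 1 gene and the black bar is the list median. The points farthest from 0 include IGFBP1 at 2.48 at 0.5 mg/kg and STC2 at -1.87 at 5 mg/kg, and 0 genes passed the threshold.

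With the dose groups pooled, the 9 genes did not vary together from bird to bird in a way that passed a test. Of 36 pairs, 0 passed after adjustment over the pairs for Pearson's r (lowest adjusted permutation p 0.609) or for Spearman's rho (lowest adjusted permutation p 0.709). The strongest positive pair was IGF1 with IGFBP4, with r = 0.53 over 16 birds (permutation p = 0.0342) and rho = 0.46 (permutation p = 0.0759). Their r was 0.38 without the 2 birds farthest from the IGF1 median, 0.3 within birds 4 to 6 and 0.69 within birds 1 to 3. The strongest negative pair was IGF1R with IRS2, with r = -0.55 (permutation p = 0.0246) and rho = -0.41 (permutation p = 0.12), and its r was -0.3 without the 2 birds farthest from the IGF1R median. IGFBP2 with IGFBP4 had r = 0.5 (permutation p = 0.0508) and rho = 0.58 (permutation p = 0.0203). GHR and IGF1, receptor and target, had r = -0.03. Pooling mixes differences between dose groups with those between birds. After each group's mean was subtracted, r was 0.56 for IGF1 with IGFBP4 and -0.39 for IGF1R with IRS2. For IRS2 with SOCS2 it was -0.26 pooled and 0.51 after subtraction. The values after subtraction were not tested.

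**Figure D5:**
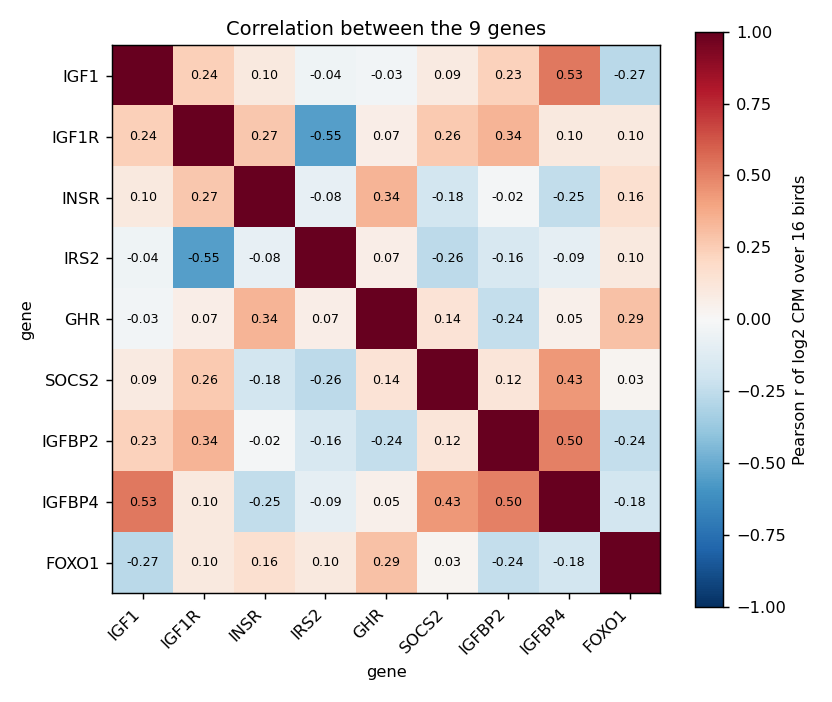
Pearson's r of log2 CPM over 16 birds between each pair of the 9 genes (both axes list the genes, red for positive and blue for negative values). The values range from -0.55 (IGF1R with IRS2) to 0.53 (IGF1 with IGFBP4), and 0 of 36 pairs passed after adjustment.

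For each gene, the other named genes with the most similar log2 levels over the 16 birds were listed, out of 10878 compared, as a description. SOCS2 was most like ARHGEF3 (r = 0.89) and HSPB8 (r = 0.78), and IRS2 most like PLRG1 (r = 0.9) and LPCAT3 (r = 0.84). IGF1R was most like ERG (r = 0.92), which is among the endothelial markers used here, and PHACTR2 (r = 0.88). INSR was most like GOLPH3 (r = 0.9) and ARHGAP5 (r = 0.88), GHR most like PCYOX1 (r = 0.89) and SHANK3 (r = 0.88), and FOXO1 most like GOLT1A and LARP1 (r = 0.83 each). IGFBP2 was most like FAM8A1 (r = 0.81) and PLEKHG5 (r = 0.77), IGFBP4 most like RPUSD2 (r = 0.8) and SSTR1 (r = 0.79), and IGF1 most like UBN2 (r = 0.77) and NAV2 (r = 0.76). All these values share the same 16 libraries. They are the highest of 10878 per gene over only 16 birds, so high r can arise from the choice alone, and none was tested.

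The transcript rows behind each gene were also compared. IGF1, SOCS2, IGFBP4 and FOXO1 each had 1 row. INSR had 4, of which a single row held a median of 95.06% of the gene's estimated counts, and single rows held 91.61% for IGF1R (of 2 rows) and 84.51% for IRS2 (of 3). GHR and IGFBP2 were more evenly divided. The leading GHR row of 4 held a median of 65.74% and between 39.1% and 76.49% over the birds, and the leading IGFBP2 row of 2 held a median of 63.72% and between 51.55% and 84.31%. The rows carry no transcript name, so the isoforms were not told apart.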

How the data were processed

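The authors deposited kallisto's estimated counts, a value per transcript (tool named in the submitters' processing notes). Its version, the transcriptome, the genome build and the strandedness were not given in the sources used here, so reads of overlapping or antisense genes cannot be told apart. The 47418 transcript rows carry NCBI gene numbers. They were summed to 20308 genes and rounded to whole numbers, a change of at most 0.5. Names and chromosomes came from the RefSeq gene table of the assembly Coturnix japonica 2.1, which matched 18900 genes. Promoter motifs were planned and not run, and no sequences were used here. No transcript lengths were used, so levels are not compared between genes.

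Genes were filtered with filterByExpr (minimum count 10, minimum total 15), leaving 13748, and libraries were scaled by TMM. The main test was edgeR 4.0.16's quasi-likelihood test (limma 3.58.1, R 4.3.3) on all 16 birds with the 3 groups, 13 residual degrees of freedom. The biological coefficient of variation was 35.4% (common dispersion 0.126). Adjustment was by Benjamini-Hochberg over all genes, with a threshold of 0.05. A fit with the bird number class as a term compared the classes, and a fit with the interaction tested whether dose effects differed between them. Correlations used log2 CPM (prior count 2) and 100000 permutations, two-sided. Standard errors were derived from edgeR's log2 fold change and F statistic, and 95% intervals from these with a t quantile, so both are approximate. DESeq2 1.42.0, limma-voom, other scalings and filters, fits within a class, a replicate block and fits without each bird were alternatives. The script was checked on simulated counts.

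The 9 genes, the pathway and marker lists and the tests were chosen with earlier results of these data known. Named list genes were those past the threshold, and otherwise the 3 per list with the lowest p for both doses against solvent. Of the genes this rule picked, 2 are not reported here. The 2 genes most like each member were those with the highest Pearson r. The replicates are separately dosed birds, per the labels' protocols, so p-values reflect the spread among these birds alone.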

Additional observations from a re-analysis of the deposited data

Results flagged for a closer look

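Of 27 groups of birds examined, 9 genes in each of 3 groups, 4 had a bird far from the others of its group, by the gap to the nearest bird over the range of the group. For normally distributed values, chance alone sets about 5% of such groups apart. CPM values can be skewed upward, which can raise that share, and all 4 birds were the highest of their group. The count is therefore not read against the 5%. IGF1 was at 119 CPM in 5 mg/kg replicate 4, where the next bird of that group was at 44.2 CPM. IGF1 was at 53.7 CPM in solvent replicate 2, where the other solvent birds lay between 23.0 and 30.7 CPM. SOCS2 was at 4.55 CPM in 0.5 mg/kg replicate 5, where the next bird was at 1.29 CPM. IGFBP2 was at 137 CPM in solvent replicate 5, where the next bird was at 71.6 CPM. Why these birds stood apart was not tested.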

How the results depend on the processing

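The counts of members past the threshold, 0 in every comparison, stayed at 0 under every alternative run except DESeq2, which called 2 (IRS2 and SOCS2) at 5 mg/kg and 2 for both doses, each against solvent. Over 32 values of single genes, leaving out 1 bird kept the direction and the side of the threshold in 372 fits and turned the direction in 24, and the other settings kept both in 258 and turned it in 17. The turned values were mostly near 0. Within birds 1 to 3, IGF1 was at -0.64 at 5 mg/kg and -0.29 for both doses, INSR at -0.13 and IGFBP2 at 0.13 at 5 mg/kg. Within birds 4 to 6, IGFBP4 was at 0.093 and FOXO1 at -0.15 at 5 mg/kg, and FOXO1 at 0.024 at 0.5 mg/kg. With limma-voom, INSR was at -0.034, GHR at 0.0024 and IGFBP2 at 0.0089 at 5 mg/kg, and SOCS2 at -0.72 between number classes. IGFBP2 at 5 mg/kg was at 0.014 with upper quartile factors, 0.063 with the number class as a term and 0.0036 with only the compared groups in the fit. All are log2 fold changes, and the causes were not tested.

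With 1 bird left out, the 5 mg/kg values ran from -0.19 to 0.77 for IGF1, -0.1 to 0.23 for INSR, -0.21 to 0.11 for GHR, -0.17 to 0.24 for IGFBP2 and -0.069 to 0.071 for FOXO1. IGFBP4 at 0.5 mg/kg ran from -0.18 to 0.052, SOCS2 between the doses from -1.21 to 0.09 and between number classes from -0.41 to 0.5, and the IGF1 class difference at 0.5 mg/kg from -0.59 to 1.03. The leave-one-bird-out fits of the class differences in dose effect were added after the data were seen.

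Counts over all genes moved more. At 5 mg/kg against solvent, 6 by edgeR became 153 with DESeq2, 2 with limma-voom, 3 with the number class as a term, 0 within birds 1 to 3, 1 within birds 4 to 6, 0 with only the compared groups, and 0 to 21 with 1 bird left out. Dropping 5 mg/kg replicate 4 gave 21 and replicate 3 gave 10, replicate 2 gave 1, dropping solvent replicate 1 gave 3, and dropping any of solvent replicates 3 to 6 gave 0. At 0.5 mg/kg against solvent, 0 became 42 with DESeq2, 1 with upper quartile factors, 6 with only the compared groups, and 0 to 1 with 1 bird left out. Between the doses, 0 became 26 with DESeq2 and 0 to 2 with 1 bird left out. For both doses, 0 became 145 with DESeq2, 1 with upper quartile factors, 1 with the number class as a term, and 0 to 5 with 1 bird left out. Between number classes, 171 became 320 with DESeq2 and 129 to 170 with 1 bird left out. The count for the class difference at 5 mg/kg was 0 to 1 with 1 bird left out.

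No pairing of the birds by number was seen, though such correlations cannot show that none exists. Deviations of birds with the same replicate number correlated at -0.084 to 0.203 (median 0.024 over 15 pairs). Those of birds with the same bird number in brackets had the same range (median 0.0235 over 14 pairs). Birds of different groups with other replicate numbers correlated at -0.191 to 0.198 (median 0.002 over 70 pairs). With the replicate number as the block, edgeR called 2 genes at 5 mg/kg against solvent and 2 for both doses, and 0 of the 9 members, with INSR at -0.052 at 5 mg/kg. With the bird number as the replicate block, added after the data were seen, it called 1 gene at 5 mg/kg, 0 for both doses and 0 of the 9 members, with INSR at -0.064 and IGFBP2 at 0.016 at 5 mg/kg. SOCS2, with 4 to 413 counts per bird, was the member most limited by depth.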
